A study of Mus musculus with 127 samples.

Results

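Within the Ly6g high gate of mouse bone marrow, the 13 cells of the deposited class Myelo-4 were compared with the 27 cells of class Myelo-2. These 40 cells were taken from the 46 cells of the gate and the 127 cells of the series by the class name that the authors' deposited file gives each cell. The method behind the class names is not given in the sources used here. All cells came from wild-type C57BL/6 mice, whose age, number and any treatment are not given in the sources used here. Per the labels' protocols, hindlimbs were crushed and the marrow was passed over beads against CD117, the progenitor receptor encoded by Kit. The sorted population carries the label GMP-P and was positive for CD11b, an integrin of myeloid cells. The Ly6g high gate selects for Ly6g, a surface protein of mouse granulocytes. Single cells were captured on the Fluidigm C1 system and sequenced as full-length cDNA. Also used for levels were 3 Myelo-3 cells of the Ly6g high gate, and 3 Myelo-4 and 14 Myelo-2 cells of a gate sorted as CD11b+.

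Neutrophils arise in the marrow from dividing granulocyte precursors that fill their granules in sequence. Primary granules hold Mpo and Elane, specific granules hold Ltf, Camp, Ngp and Lcn2, and gelatinase granules, made last, hold Mmp9. Division stops during this sequence, and surface receptors for chemokines and bacterial peptides appear toward its end.

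Values are deposited as log2(TPM + 1), where TPM is a length-corrected share of the transcripts of a cell. A gene was detected in a cell at 1 TPM or more, and measured when this held for 25% or more of Myelo-4 or of Myelo-2 cells. Ratios are log2 ratios of mean TPM + 1, Myelo-4 over Myelo-2. A gene is called higher or lower when this ratio and the difference of mean log2(TPM + 1) both had a size of at least 1, which is 2-fold, with the same sign. Each class counted as 1 sample, because no animal is named and the class names are treated as drawn from the same expression values, so no test was made and no difference below has a replicate check. Intervals of shares are exact 95% binomial intervals and cover counting error only. Classes of whole cells are described, so a lower share of a transcript cannot be told apart from more of the others.

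The class label was first set against its 4 markers. Mmp8, Mmp9 and Retnlg were higher in Myelo-4 cells, while Ly6g did not separate the classes. Mmp8, the neutrophil collagenase, stood at 6.27 TPM in the lowest, 1838 TPM in the median and 5702 TPM in the highest Myelo-4 cell, against 0, 0 and 0.94 TPM in Myelo-2 cells. Every Myelo-4 cell was above every Myelo-2 cell. Mmp8 was the only one of 3105 measured genes for which this held (0.0322%), and for 0 genes was every Myelo-4 cell below every Myelo-2 cell. Detection was 13 of 13 cells (100%, interval 75.3 to 100) against 0 of 27 (0%, 0 to 12.8). The means were 2277 and 0.12 TPM, or 10.05 ± 2.63 and 0.15 ± 0.23 as mean log2(TPM + 1) (SD over cells). The log2 ratio of 10.98 depends on the 1 TPM added, since all Myelo-2 values lay under 1 TPM. Because the class names may have been drawn from these expression values, the separation describes the classes and is no independent evidence for them.

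Mmp8 at 100 TPM or more was found in 12 of the 13 Myelo-4 cells of this gate and in 3 of 3 Myelo-4 cells of the CD11b+ gate. No cell of another class reached that level among all 127 cells. The highest such value was 22.8 TPM in a Myelo-2 cell of the Ly6g low gate. The 1 exception among Myelo-4 cells was cell 79, with 6.27 TPM of Mmp8 but 6750 TPM of Retnlg and 395 TPM of Mmp9.

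Mmp9, the gelatinase of late granules, was at 97.5, 482 and 3227 TPM in the lowest, median and highest Myelo-4 cell, against 0, 5.09 and 879 TPM in Myelo-2 cells. The classes overlapped: 6 Myelo-4 cells lay above all Myelo-2 cells, and a Myelo-4 cell was the higher one in 92% of the 351 pairs of cells. The means were 911 and 128 TPM (log2 ratio 2.82). Detection was 13 of 13 cells against 17 of 27 (63%, 42.4 to 80.6). At 100 TPM or more Mmp9 was found in 12 Myelo-4 and 6 Myelo-2 cells.

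Retnlg, a secreted resistin-like protein of mouse neutrophils, varied widely within Myelo-4, at 0, 6750 and 47005 TPM, against 0, 0.95 and 2680 TPM in Myelo-2 cells. In 9 Myelo-4 cells it exceeded every Myelo-2 cell, while Myelo-4 cells 59, 84 and 76 held 0, 1.16 and 2.01 TPM. The means were 11124 and 263 TPM (log2 ratio 5.40), with detection in 12 of 13 cells (92.3%, 64 to 99.8) against 13 of 27 (48.1%, 28.7 to 68.1).

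Ly6g itself was at 0, 284 and 4220 TPM in Myelo-4 cells, against 0, 255 and 5384 TPM in Myelo-2 cells. The medians were close and the ranges covered each other, and a Myelo-4 cell was the higher one in 55.4% of pairs. The means were 1426 and 842 TPM (log2 ratio 0.76, not called), with detection in 10 of 13 cells against 22 of 27. Itgam, which encodes CD11b, was at 280 and 192 TPM with medians of 132 and 148 TPM. Kit was detected in 1 of 13 and 4 of 27 cells, at means of 0.37 and 3.85 TPM, so the transcript of the receptor used for bead enrichment was near 0 in both classes.

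**Figure D1:**
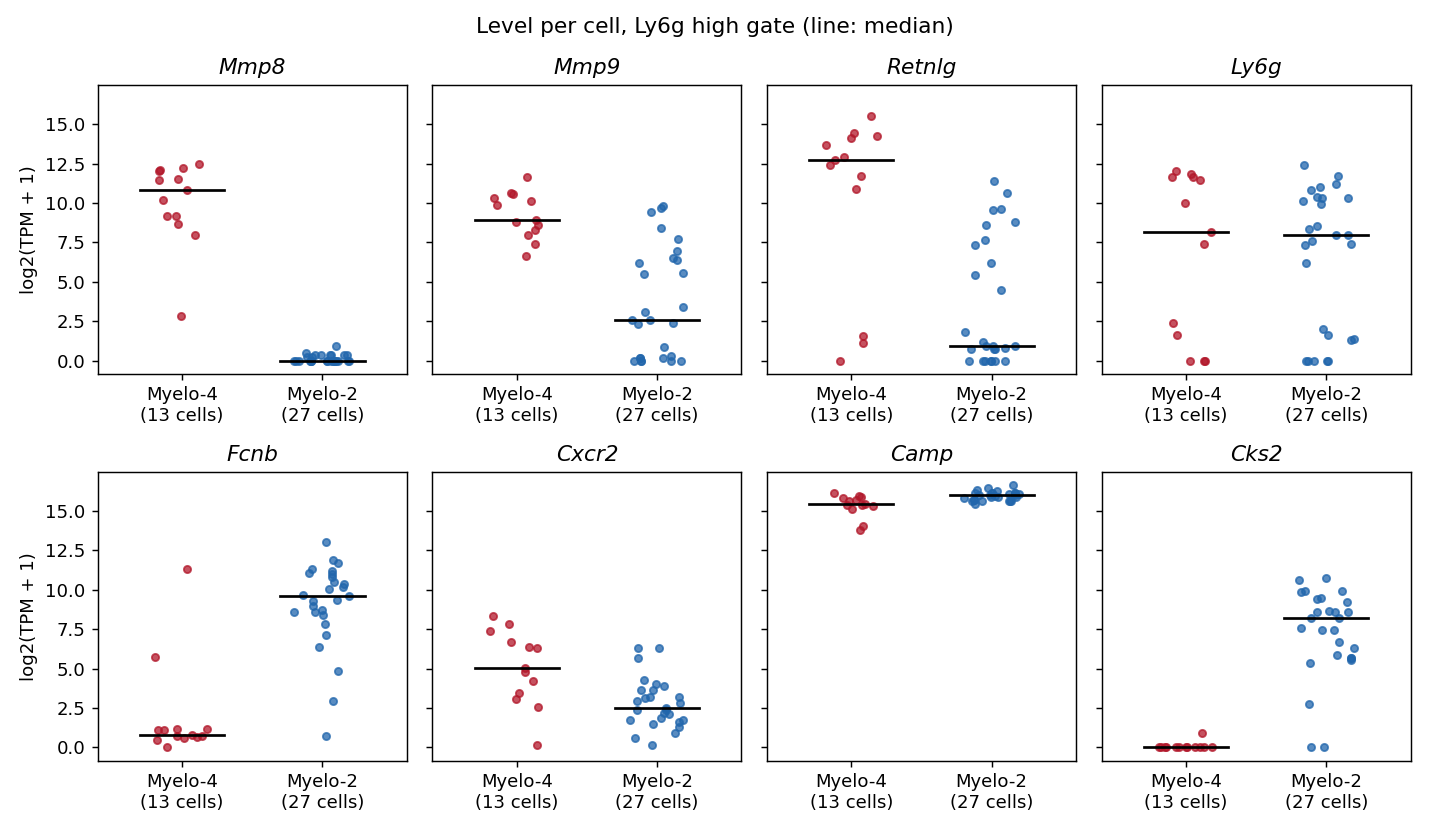
Level of 8 genes in each cell of the Ly6g high gate as log2(TPM + 1), with Myelo-4 cells in red on the left and Myelo-2 cells in blue on the right of each panel; lines are medians. Mmp8 separates the classes, and Mmp9, Retnlg and Cxcr2 are shifted upward in Myelo-4. Ly6g overlaps, Camp overlaps with a small downward shift in Myelo-4, and Fcnb and Cks2 are low in nearly all Myelo-4 cells.

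The promoters of Mmp8 and Retnlg, the markers with the largest ratios, are shown as RefSeq gives them for build GRCm38.p6, 250 bases before to 50 bases after the gene start. Capitals mark matches on either strand to TTGCNNAA, a pattern bound by C/EBP factors, GAGGAAG, bound by PU.1 (gene Spi1), and CCAAT, bound by NF-Y.
Mmp8 promoter, chr9:7558179-7558478, plus strand: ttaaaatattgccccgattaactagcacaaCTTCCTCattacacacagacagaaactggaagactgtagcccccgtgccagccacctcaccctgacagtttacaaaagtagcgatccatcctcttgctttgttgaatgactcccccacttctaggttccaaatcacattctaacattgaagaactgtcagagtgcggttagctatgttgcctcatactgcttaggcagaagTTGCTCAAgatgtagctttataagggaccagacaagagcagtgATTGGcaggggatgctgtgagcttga
Retnlg promoter, chr16:48872358-48872657, plus strand: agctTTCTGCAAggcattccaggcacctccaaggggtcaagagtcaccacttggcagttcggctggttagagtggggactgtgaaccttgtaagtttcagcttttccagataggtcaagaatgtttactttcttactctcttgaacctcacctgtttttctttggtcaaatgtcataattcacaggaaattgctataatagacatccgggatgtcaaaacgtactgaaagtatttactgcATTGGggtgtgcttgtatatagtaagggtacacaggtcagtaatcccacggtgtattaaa
Counting the first transcribed base as 1, Mmp8 held TTGCTCAA at -19 to -12, a GAGGAAG match on the other strand at -220 to -214 and a CCAAT match on the other strand at 25 to 29. Retnlg held TTCTGCAA, the other-strand form of TTGCNNAA, at -246 to -239 and a CCAAT match on the other strand at -10 to -6. TTGCNNAA occurred in 10.8% of the 32851 promoters of the same length, in 5 of 14 promoters of the gelatinase and late secreted list below and in 5 of 19 of the specific granule list. GAGGAAG occurred in 13.6% of all promoters and CCAAT in 37.4%. These are matches of letters, with no measure of binding.

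Myelo-4 cells had fewer genes detected than Myelo-2 cells, which bears on each comparison that follows. The number per cell was 966, 1318 and 1863 in the lowest, median and highest Myelo-4 cell, against 1359, 2030 and 2790 in Myelo-2 cells. In 7 Myelo-4 cells it lay below every Myelo-2 cell, and 17 Myelo-2 cells lay above every Myelo-4 cell. The difference held at higher levels too, with medians of 965 and 1524 genes at 10 TPM or more and of 513 and 708 genes at 100 TPM or more. The 8 most abundant genes (S100a9, S100a8, Ngp, Camp, Actb, Lcn2, Lyz2 and Chil3) took a median of 62.4% of the TPM in Myelo-4 and 59.7% in Myelo-2 cells. TPM keeps no read depth, so fewer transcripts per cell and shallower libraries cannot be told apart.

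Of the 3105 measured genes, 188 were higher (6.05%) and 1063 lower (34.2%) in Myelo-4. The median log2 ratio over all of them was -0.75, and 32.9% were above 0. List medians below are read against this shift. Of the lower genes, 363 stood under 1 TPM in every Myelo-4 cell, and 101 were listed at 0 in all of them. To hold the number of genes alike, 6 Myelo-4 cells and 10 Myelo-2 cells within the range shared by both classes were also compared, with medians of 1504.5 and 1616 genes. There the median ratio was -0.15, with 617 higher (20.9%) and 671 lower (22.8%) of 2948 measured genes. This smaller set is called the shared-range cells.

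Genes of mitosis gave the lowest list median of all. Of 49 listed members 48 were measured, and 47 were lower, 0 higher, with a median log2 ratio of -6.24. In 34 of the 48 no Myelo-4 cell reached 1 TPM, and the median member was detected in 0% of Myelo-4 and 59.3% of Myelo-2 cells. The summed mitosis level per cell was 6.99, 48.6 and 1325 TPM in Myelo-4 cells, against 212, 11686 and 18399 TPM in Myelo-2 cells. In 11 Myelo-4 cells it lay below every Myelo-2 cell. In the shared-range cells 27 of 28 measured members were lower at a median of -6.10, against -6.51 for the same 28 members over all cells. The summed level had medians of 53.9 and 2984 TPM there, a smaller gap than over all cells.

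Cks2, which binds the mitotic kinase Cdk1, had the lowest ratio of all named genes. It was at 0, 0 and 0.86 TPM in Myelo-4 cells, against 0, 292 and 1744 TPM in Myelo-2 cells. It was detected in 0 of 13 Myelo-4 cells (0%, 0 to 24.7) and 25 of 27 Myelo-2 cells (92.6%, 75.7 to 99.1), with means of 0.07 and 420 TPM (log2 ratio -8.63). Birc5, the survivin subunit of the chromosomal passenger complex, was at 0, 0 and 0.60 TPM against 0, 333 and 2896 TPM (log2 ratio -8.44). Another subunit of that complex, Cdca8, averaged 0.21 and 279 TPM.

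Ube2c, which loads ubiquitin for the anaphase-promoting complex, averaged 0.16 TPM in Myelo-4 and 435 TPM in Myelo-2 cells. The mitotic cyclin Ccnb2 averaged 0.14 and 326 TPM, with detection in 1 of 13 and 21 of 27 cells. Spc25, of the kinetochore, averaged 0.18 and 258 TPM, and Kpna2, a nuclear import receptor that is no member of the list, 0.12 and 391 TPM. Mki67, the Ki-67 antigen used to mark dividing cells, averaged 0.26 and 107 TPM, and Top2a, the topoisomerase of chromosome condensation, 0.14 and 231 TPM.

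Members with a high level in Myelo-2 cells left traces in a few Myelo-4 cells. Stmn1, which destabilises microtubules, averaged 96.6 and 1469 TPM, and 99.6% of the Myelo-4 sum came from 1 cell. The tubulin gene Tubb5 averaged 17.3 and 1628 TPM, with 94.3% of the Myelo-4 sum from 1 cell. Spc24 alone of the list was detected in every cell of both classes, at means of 10.7 and 92.5 TPM. The 1 measured member that was not called was Ckap2, listed at 0 in all Myelo-4 cells and at a mean of 3.37 TPM in Myelo-2 cells.

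The promoters of 3 mitosis genes with very low ratios are shown because such genes are known to share promoter letters. Capitals mark CCAAT and TTTGAA, the core letters of the cell cycle genes homology region (CHR), on either strand.
Cks2 promoter, chr13:51644982-51645281, plus strand: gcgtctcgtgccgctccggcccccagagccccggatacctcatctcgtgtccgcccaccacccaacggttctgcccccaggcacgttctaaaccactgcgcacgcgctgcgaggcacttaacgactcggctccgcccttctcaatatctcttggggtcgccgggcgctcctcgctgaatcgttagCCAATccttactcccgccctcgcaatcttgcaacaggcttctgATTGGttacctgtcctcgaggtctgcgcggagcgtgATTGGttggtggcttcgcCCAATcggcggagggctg
Ube2c promoter, chr2:164769679-164769978, plus strand: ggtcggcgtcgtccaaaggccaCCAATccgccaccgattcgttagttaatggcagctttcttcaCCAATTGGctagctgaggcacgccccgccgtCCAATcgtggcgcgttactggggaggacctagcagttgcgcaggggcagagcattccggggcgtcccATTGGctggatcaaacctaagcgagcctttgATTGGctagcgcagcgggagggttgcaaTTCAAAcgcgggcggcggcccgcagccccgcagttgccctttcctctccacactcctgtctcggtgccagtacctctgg
Ccnb2 promoter, chr9:70421505-70421804, minus strand: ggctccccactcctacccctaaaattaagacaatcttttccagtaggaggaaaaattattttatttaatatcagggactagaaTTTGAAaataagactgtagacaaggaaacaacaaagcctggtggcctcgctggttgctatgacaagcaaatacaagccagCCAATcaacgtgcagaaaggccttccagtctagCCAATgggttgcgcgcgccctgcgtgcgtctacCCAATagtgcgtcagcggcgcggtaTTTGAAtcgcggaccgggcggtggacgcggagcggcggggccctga
Cks2 held 4 matches to CCAAT and no TTTGAA in this window. Ube2c held 6 matches to CCAAT, of which 2 overlap, and TTTGAA on the other strand at -29 to -24. Ccnb2 held CCAAT at -87 to -83, -54 to -50 and -21 to -17, and TTTGAA at -167 to -162 and 5 to 10. For 42 of the 49 mitosis genes the table had promoters, 45 in all. CCAAT occurred in 34 of these 45 (75.6%), against 37.4% of all 32851 promoters. TTTGAA occurred in 33 of 45 (73.3%), against 17.9% of all, in 5 of 37 promoters of the S phase list (13.5%) and in 2 of 14 of the gelatinase list (14.3%). TTGCNNAA occurred in 0 of the 45.

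**Figure D2:**
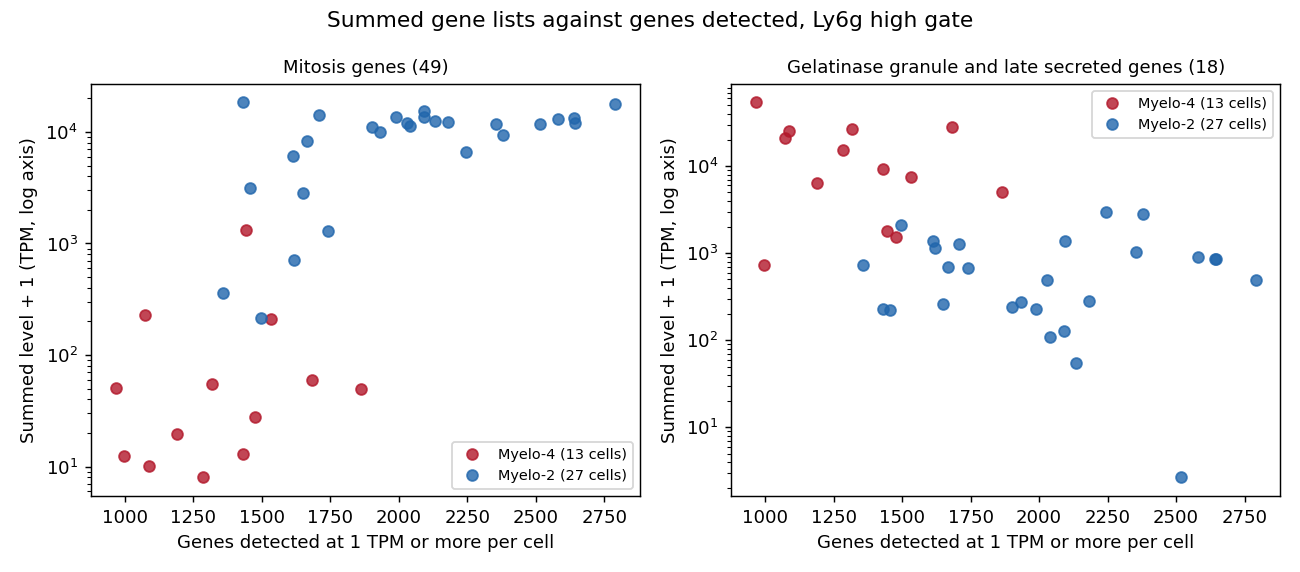
Summed TPM + 1 of the 49 mitosis genes (left) and the 18 gelatinase granule and late secreted genes (right) in each cell on a log axis, against the number of genes detected at 1 TPM or more. Among cells with 1359 to 1863 genes, Myelo-4 cells (red) lie lower than most Myelo-2 cells (blue) in mitosis genes and higher in gelatinase genes.

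Genes of DNA replication were lower as well, with a smaller number measured. Of 37 S phase members 17 were measured, 16 lower and 0 higher, at a median of -4.94. Rrm2, a subunit of ribonucleotide reductase, was at 0, 0.19 and 0.83 TPM in Myelo-4 cells, against 0, 128 and 2650 TPM in Myelo-2 cells. No Myelo-4 cell reached 1 TPM. Rrm1, its other subunit, averaged 0.03 and 111 TPM, Gmnn, the inhibitor of replication licensing, 0.11 and 117 TPM, and the thymidine kinase Tk1 0.19 and 59.7 TPM. In the shared-range cells only 5 members were measured, 1 higher and 2 lower, at a median of -1.54. The S phase sum was at 0.98, 7.97 and 1066 TPM in Myelo-4 cells, against 4.80, 1109 and 5548 TPM in Myelo-2 cells. Its medians were 34 and 46.2 TPM in the shared-range cells, so most of this gap was not seen among cells with like numbers of genes. The shared-range Myelo-2 cells also had a lower median mitosis sum than all Myelo-2 cells, 2984 against 11686 TPM. Genes detected and the mitosis sum had a Spearman correlation of 0.49 over the 27 Myelo-2 cells. Gene number and division thus cannot be told apart in this comparison. Asf1b, a histone chaperone outside the list, averaged 0.07 and 248 TPM.

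Histone variants and HMG proteins, which package chromatin, were lower for 12 and higher for 1 of 17 measured members (23 in the table), at a median of -2.30. H2afx averaged 0.07 TPM in Myelo-4 and 129 TPM in Myelo-2 cells, and no Myelo-4 cell reached 1 TPM. Hmgb3 averaged 0.03 and 90.6 TPM, the heterochromatin protein gene Cbx5 0.02 and 44.5 TPM, and Hist1h2bc 0.63 and 59.6 TPM. The abundant Hmgn2, chosen after its values were seen, was at 49.6, 1109 and 11259 TPM against 1974, 7061 and 14929 TPM, with 10 Myelo-4 cells below every Myelo-2 cell. H3f3a, the replication-independent histone H3.3, was at 1119 and 1153 TPM and was not called. The shared-range cells had 7 of 13 members lower and a median of -1.19.

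Of the nuclear envelope list 7 of 14 members were measured, 3 lower and 0 higher, at a median of -0.97, close to that of all genes. In the shared-range cells 2 of 6 were lower, at a median of -0.13. Banf1, which bridges chromatin and the envelope, averaged 0.22 TPM in Myelo-4 and 268 TPM in Myelo-2 cells. Tmpo, a lamin-binding protein, averaged 2.27 and 155 TPM, and Lbr, the lamin B receptor needed for neutrophil nuclear shape, 407 and 458 TPM without a call.

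The nucleolar list had 3 of 26 members measured. Npm1, the nucleophosmin of ribosome assembly, was at 0, 0.28 and 0.81 TPM in Myelo-4 cells, against 0, 21.6 and 797 TPM in Myelo-2 cells, and Ncl, nucleolin, averaged 0.02 and 33.4 TPM. Both were under 1 TPM in every Myelo-4 cell, and they remained lower in the shared-range cells.

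Genes of late neutrophil products, a list that includes the markers Mmp8, Mmp9 and Retnlg, had the highest list median. Of 18 gelatinase granule and late secreted genes 7 were measured, 5 higher and 1 lower, at a median of 2.03, and 11 stood below the filter. Their sum per cell was 739, 9263 and 53993 TPM in Myelo-4 cells, against 1.66, 669 and 3007 TPM in Myelo-2 cells. In 10 Myelo-4 cells it lay above every Myelo-2 cell. Mmp8, Mmp9 and Retnlg made up 91.6% of the summed level in Myelo-4 and 48.2% in Myelo-2 cells, so the sum mostly restates the markers. They were also 3 of the 5 higher members, so the counts and the median rest in large part on them too. Of the other measured members Slpi and Adam8 were higher, Padi4 (log2 ratio 0.98) was not called and G0s2 was lower. The other 15 genes summed to 2.63, 1114 and 4985 TPM in Myelo-4 cells, against 0.73, 284 and 2024 TPM in Myelo-2 cells. In the shared-range cells 6 of 8 measured members were higher and 0 lower, at a median of 2.58. Beside the 3 markers above, Slpi, a secreted inhibitor of neutrophil proteases, was at 0, 841 and 4728 TPM against 0, 62.7 and 1869 TPM (log2 ratio 2.03). Adam8, a membrane protease of leukocytes, averaged 25.2 and 9.59 TPM and was detected in 8 of 13 and 5 of 27 cells. The lower member was G0s2, a lipase inhibitor, at means of 17 and 67.4 TPM.

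The main specific granule products, Camp, Ngp, Ltf and Lcn2, were detected in every cell and differed little in mean. Of 20 members 19 were measured, 3 higher and 4 lower, at a median of 0.16, which turned to -0.12 in the shared-range cells. Camp, the cathelicidin, was at 13858, 43472 and 71530 TPM in Myelo-4 cells, against 43483, 64464 and 102972 TPM in Myelo-2 cells. Its log2 ratio was -0.52, yet 7 Myelo-4 cells lay below every Myelo-2 cell. Ngp averaged 87048 and 109448 TPM, Ltf, lactoferrin, 11978 and 10690 TPM, and Lcn2, lipocalin 2, 20975 and 16000 TPM, all without a call.

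Fcnb, the secreted lectin ficolin B, was the specific granule member with the lowest ratio. It was at 0, 0.76 and 2580 TPM in Myelo-4 cells, against 0.65, 777 and 8165 TPM in Myelo-2 cells (log2 ratio -2.73). It reached 100 TPM in 1 Myelo-4 cell and 23 Myelo-2 cells. That cell, number 59, held 97.7% of the Myelo-4 sum, and the Myelo-4 mean was 203 TPM with it and 5.14 TPM without it, against 1352 TPM in Myelo-2. Chil3, a chitinase-like secreted protein chosen after its values were seen, was at 23.6, 4170 and 11846 TPM against 4537, 16890 and 26523 TPM, with 7 Myelo-4 cells below every Myelo-2 cell.

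Higher members of the specific granule list, as drawn up here, were AA467197, Ceacam10 and Itgb2l. Membership of the list is no evidence that a product lies in the granule. Ceacam10, an adhesion molecule family member, was at 0, 171 and 2183 TPM in Myelo-4 cells, against 0, 0 and 649 TPM in Myelo-2 cells. The integrin-like Itgb2l averaged 874 and 363 TPM, with detection in 12 of 13 and 24 of 27 cells. AA467197 averaged 421 and 65 TPM.

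Mpo and the protease genes Elane, Prtn3 and Ctsg of the primary granule list were near 0 in both classes, while some other members were not. The protease gene Prss57, below the filter, averaged 0 TPM in Myelo-4 and 19.8 TPM in Myelo-2 cells, with detection in 22.2% of Myelo-2 cells. Of 13 members 4 were measured, 0 higher and 1 lower, at a median of -0.36. Elane averaged 1.04 and 1.02 TPM, with no cell above 4.72 TPM, and Mpo 0.38 and 0.56 TPM, with no cell above 1.65 TPM. Serpinb1a, an inhibitor of neutrophil proteases, averaged 751 and 1152 TPM and was detected in 12 of 13 and 26 of 27 cells, and Igsf6, an immunoglobulin family member, averaged 445 and 476 TPM, both without a call. Ms4a3, a membrane protein of granulocyte progenitors, was the lower member, at means of 30.3 and 184 TPM and with detection in 2 of 13 and 10 of 27 cells.

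Receptors of mature neutrophils had calls in both directions, with a list median above that of all genes. Of 41 members 26 were measured, 2 higher and 5 lower, at a median of 0.33 against -0.75 for all genes. Of the 26 ratios 15 were above 0, against 32.9% of all genes. In the shared-range cells 4 of 26 were higher and 3 lower, at a median of 0.21 against -0.15 for all genes. Cxcr2, the receptor for chemokines that call neutrophils out of the marrow, was at 0.13, 32.2 and 323 TPM in Myelo-4 cells, against 0.12, 4.65 and 78.9 TPM in Myelo-2 cells. It exceeded every Myelo-2 cell in 5 Myelo-4 cells, and detection was alike, in 12 of 13 and 24 of 27 cells (log2 ratio 2.59). Fpr1, the formyl peptide receptor, was at 0, 61.3 and 2372 TPM against 0, 0 and 331 TPM, with detection in 7 of 13 cells (53.8%, 25.1 to 80.8) and 3 of 27 (11.1%, 2.35 to 29.2). The highest cell gave 52.5% of the Myelo-4 sum and 89.4% of the Myelo-2 sum of Fpr1.

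Csf3r, the G-CSF receptor, averaged 156 TPM in Myelo-4 and 55.4 TPM in Myelo-2 cells but had medians of 16.5 and 5.72 TPM and was not called. The lower receptors were Fcgr2b, Fcgr3, Gpr97, Tnfrsf1a and Ifngr1. Ifngr1, the interferon gamma receptor, averaged 2.19 and 72 TPM and was detected in 2 of 13 and 17 of 27 cells. None of the 8 measured integrin and Ly6 members was called, Ly6c2 being at 1571 and 1428 TPM. In the shared-range cells 3 of the 8 were higher and 2 lower, and in the CD11b+ gate 7 of 9 were higher and 2 lower, or 5 and 2 of 8 without cell 46 of that gate.

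**Figure D3:**
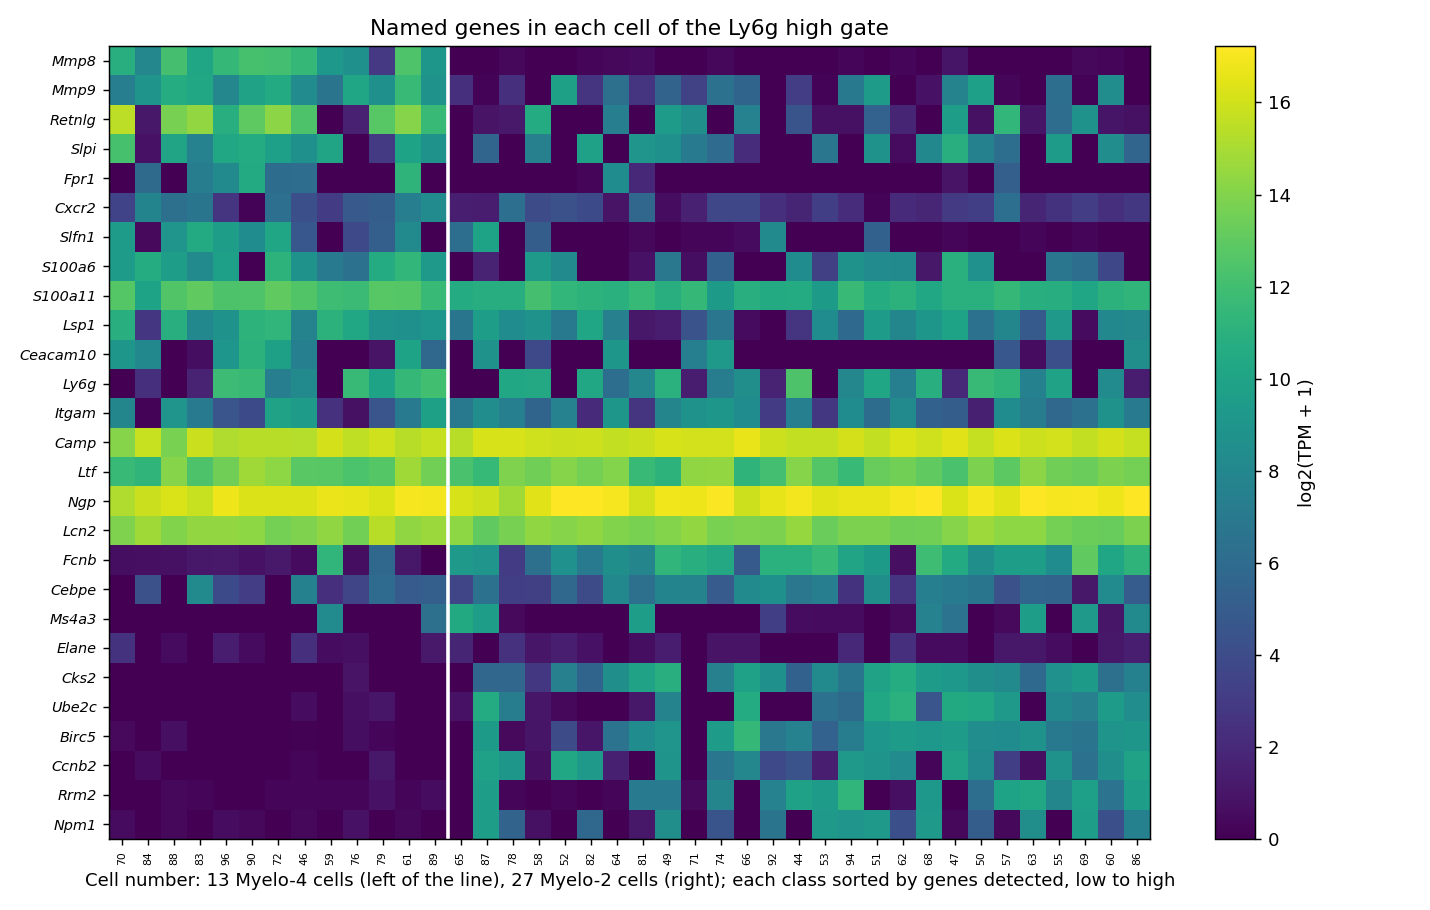
Level of 27 named genes as log2(TPM + 1) in each cell of the Ly6g high gate, with the 13 Myelo-4 cells left of the white line and the 27 Myelo-2 cells right of it, each class ordered by genes detected. The upper rows, led by Mmp8, are brighter on the left, the granule rows Camp, Ltf, Ngp and Lcn2 are bright throughout, and the lower rows from Cks2 to Npm1 are dark in nearly all Myelo-4 cells.

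Among calcium-binding S100 and annexin proteins, 2 of 10 measured members were higher and 0 lower. S100a11 was at 1011, 6055 and 8426 TPM in Myelo-4 cells, against 665, 1903 and 4588 TPM in Myelo-2 cells, and 9 Myelo-4 cells lay above every Myelo-2 cell (log2 ratio 1.44). S100a6 was at 0, 711 and 2666 TPM against 0, 8.67 and 1925 TPM (log2 ratio 2.29). The calprotectin pair S100a8 and S100a9, the most abundant transcripts of these cells, averaged 159763 and 148223 TPM, and 239782 and 185090 TPM, without a call. S100a9 was higher in the Myelo-4 cell in 82.9% of pairs.

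Of 42 actin cytoskeleton genes, all measured, 3 were higher and 3 lower, at a median of 0.33. The share higher was near the 6.05% of all genes, and the share lower was under their 34.2%. In the shared-range cells 7 of 41 were higher and 2 lower, at a median of 0.05, with 20.9% of all genes higher there. The members named next are the 3 higher ones. Lsp1, an actin-binding protein of leukocytes, was at 5.60, 527 and 2627 TPM in Myelo-4 cells, against 0, 184 and 1145 TPM in Myelo-2 cells (log2 ratio 1.94), and 6 Myelo-4 cells lay above every Myelo-2 cell. Capg, which caps filaments, averaged 574 and 186 TPM, and Tln1, talin, 77.3 and 21.8 TPM.

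Transcription factors of granulocytes gave 3 lower and 0 higher of 14 measured members (30 in the table), a smaller share than the 34.2% lower of all genes. In the shared-range cells 3 of 12 were higher and 2 lower, at a median of -0.04. Cebpe, needed for specific granule formation, was at 0, 13.6 and 304 TPM in Myelo-4 cells, against 1.17, 80.9 and 403 TPM in Myelo-2 cells (log2 ratio -1.18). It was detected in 10 of 13 and 27 of 27 cells, and 3 Myelo-4 cells lay below every Myelo-2 cell. Myb, a factor of dividing progenitors, averaged 2.69 and 27.4 TPM, and Tsc22d3, a glucocorticoid-induced factor, 7.56 and 75.4 TPM. Gfi1, a repressor needed for neutrophil formation, was listed at 0 in all Myelo-4 cells and detected in 5 of 27 Myelo-2 cells, where 1 cell gave 72.1% of the sum. Spi1 averaged 95 and 64.4 TPM without a call, and Cebpa was detected in 1 of 13 and 0 of 27 cells.

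Immediate early genes had a positive median against the negative one of all genes. Of 14 measured members 12 had a ratio above 0, at a median of 0.98, with 3 called higher and 1 lower, and the median was 0.30 in the shared-range cells. In the CD11b+ gate described below 17 of 18 were higher and 0 lower, or 11 of 15 and 0 without cell 46. Zfp36, an mRNA-destabilising protein, was at 0, 228 and 916 TPM in Myelo-4 cells, against 0, 0.75 and 701 TPM in Myelo-2 cells. Btg2, an antiproliferative protein, averaged 391 and 179 TPM, and Fosl2, an AP-1 subunit, 57.3 and 10.2 TPM, while Jun averaged 7.75 and 80.1 TPM. Of 7 measured NF-kB and inflammation genes 3 were lower (Nfkbia, Rela and Sod2) and 1 higher (Myd88), at a median of -2.50. In the shared-range cells 3 of 8 were higher and 3 lower, at a median of -0.11. The CD11b+ gate went the other way, with 8 of 15 higher and 1 lower at a median of 1.18. Without cell 46 these were 7 of 13 and 1, at 1.34. The inhibitor Nfkbia averaged 27.9 and 162 TPM.

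Interferon response genes gave 3 higher and 0 lower of 8 measured members (28 in the table), at a median of 1.13, with 6.05% of all genes higher. In the shared-range cells 3 of 10 were higher and 0 lower, at a median of 0.25, with 20.9% of all genes higher there. Ifitm6, a membrane protein of myeloid cells, was at 707, 2720 and 7857 TPM in Myelo-4 cells, against 0.78, 882 and 4387 TPM in Myelo-2 cells (log2 ratio 1.27). Irf7 and Trim30a were detected in 4 of 13 Myelo-4 cells each, and 86.4% of the Myelo-4 sum of Irf7 came from cell 79, without which its log2 ratio of 2.02 turned to -0.66. Isg15, Rsad2 and Mx1 were listed at 0 in both classes. Slfn1, a Schlafen protein of quiescent T cells in mice, averaged 410 and 53.5 TPM with detection in 10 of 13 and 5 of 27 cells, but in the shared-range cells its log2 ratio was -0.83.

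Lists of general metabolism gave other values among cells with like numbers of genes. Of all measured genes 6.05% were higher and 34.2% lower, and 20.9% and 22.8% in the shared-range cells. The shares lower over all cells in the endoplasmic reticulum, translation and respiratory lists were close to that of all genes. Endoplasmic reticulum folding genes had 0 higher and 6 lower of 17 measured members at a median of -1.10. In the shared-range cells 5 were higher and 3 lower of 15 at -0.33. Translation factors had 0 higher and 9 lower of 24 at -0.84, and 4 higher and 5 lower of 23 at -0.31 in the shared-range cells. Respiratory chain and ATP synthase genes had 2 higher and 18 lower of 52 at -0.60. In the shared-range cells 9 were higher and 7 lower of 48 at 0.20. The respiratory median thus changed sign with the cells compared, while the endoplasmic reticulum and translation medians stayed negative and came nearer to 0. Cyc1, cytochrome c1, was listed at 0 in all Myelo-4 cells and detected in 14 of 27 Myelo-2 cells. Glycolysis genes had 2 higher and 2 lower of 13 measured members at -0.05, with the hexokinase Hk2 at 223 and 54.2 TPM and the enolase Eno1 at 225 and 626 TPM. In the shared-range cells 2 of 14 glycolysis genes were higher and 1 lower, and the median changed sign to 0.12. Lysosomal genes had 2 higher and 2 lower of 14 at -0.09, and 5 higher and 0 lower of 14 at 0.79 in the shared-range cells. With ratios shifted so that the median of all measured genes was 0, the medians of the respiratory, glycolysis, lysosome, transcription factor and primary granule lists turned positive, at 0.14, 0.70, 0.66, 0.56 and 0.39.

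**Figure D4:**
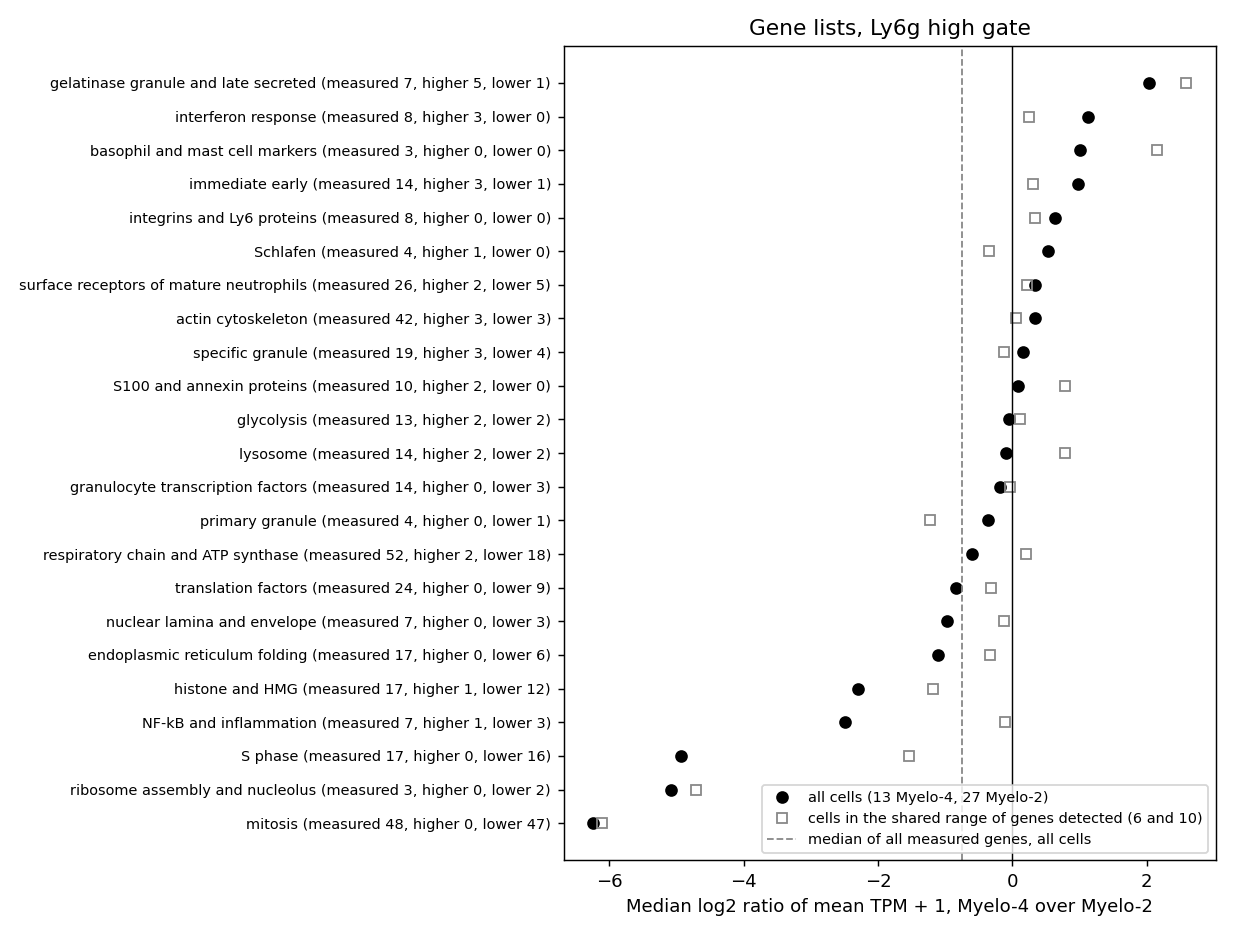
Median log2 ratio of mean TPM + 1, Myelo-4 over Myelo-2, for lists with at least 3 measured members, over all cells (filled circles) and over the shared-range cells (open squares), with the counts of measured, higher and lower genes over all cells. The dashed line marks the median of all measured genes, -0.75; mitosis and gelatinase lists keep their place among the shared-range cells, while respiratory, translation and endoplasmic reticulum lists move toward 0.

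Apart from these lists, the highest ratios after Mmp8 often rested on a few cells. Tpm4, a tropomyosin, averaged 127 TPM in Myelo-4 and 0.12 TPM in Myelo-2 cells, but was detected in 4 of 13 cells, with 86.7% of the sum in cell 90. Its log2 ratio of 6.83 turned to -0.40 in the shared-range cells. Sdf2 averaged 125 and 0.32 TPM with detection in 5 of 13 and 1 of 27 cells, and Map4k4, a kinase, 42.7 and 0.12 TPM with detection in 7 and 2 cells. Fbxo18, Mon1a, Dnttip2, Ifrd1, Rrp7a and Cd82 were detected in 4 or 5 Myelo-4 cells each. For Cd82, a tetraspanin, 98.5% of the Myelo-4 sum came from cell 83.

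The cells of a class were not uniform. Correlation of log2(TPM + 1) between pairs of cells over the measured genes had a median of 0.40 within Myelo-4 (78 pairs), 0.36 within Myelo-2 (351 pairs) and 0.32 between the classes (351 pairs). These values share the filter and the many zeros of each cell and are given as a description. At 100 TPM or more, Mmp8 and Mmp9 were found together in 11 of 13 Myelo-4 cells, Mmp8 and Retnlg in 9, and Mmp8 and Ly6g in 7. Among Myelo-2 cells, 6 had Mmp9 and 8 had Retnlg at that level, but 1 cell had both.

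Myelo-2 cells with Mmp9 at 100 TPM or more still carried mitosis transcripts, while those with Retnlg at that level varied. In the 6 Myelo-2 cells with 100 TPM or more of Mmp9 the mitosis sum was 6081 to 15381 TPM, whereas in the 12 such Myelo-4 cells it was 6.99 to 228 TPM. In the 8 Myelo-2 cells with 100 TPM or more of Retnlg it was 212 to 14323 TPM. Of these, cells 58 and 71, at 212 and 1305 TPM, lay within the range of all Myelo-4 cells. The groups of cells compared here were picked by their values, so no average or test over them is given.

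A few Myelo-2 cells were low in mitosis genes without Mmp8. Cells 58, 65, 82 and 71 had mitosis sums of 212, 358, 716 and 1305 TPM, at or below the highest Myelo-4 cell, and 1497, 1359, 1619 and 1740 genes detected. Their Mmp8 levels were 0, 0, 0.26 and 0 TPM. Cell 58 had 1561 TPM of Retnlg and 0 TPM of Mmp9, and cell 71 had 1823 TPM of Fcnb. Their mean correlations with Myelo-4 cells were 0.38 in each case, against 0.33 to 0.36 with the other Myelo-2 cells.

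Among Myelo-4 cells, number 59 stood apart. It had the highest mitosis sum of the class, 1325 TPM, with 228 TPM in the next highest cell. It also held 2580 TPM of Fcnb, 0 TPM of Retnlg and Ly6g, the class's lowest Mmp9, 97.5 TPM, and 586 TPM of Mmp8. Without it, 220 genes were higher and 1108 lower. Leaving out another Myelo-4 cell in its place gave 204 to 248 higher and 1041 to 1095 lower genes.

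Markers of most other cell types were near 0 in most cells, except single genes of the basophil and mast cell and the eosinophil lists. Of the monocyte, macrophage, dendritic cell, B cell, T and NK cell, erythroid and megakaryocyte lists no member was measured. Summed monocyte markers reached 111 TPM in the highest Myelo-4 and 158 TPM in the highest Myelo-2 cell, with medians of 0.13 and 0.54 TPM. Macrophage markers reached 1917 TPM in Myelo-4 cell 76, led by Apoe, and 3378 TPM in Myelo-2 cell 82, led by Hmox1. Dendritic cell markers reached 1179 TPM in the same Myelo-4 cell 76 and 880 TPM in Myelo-2 cell 71. Leaving out Myelo-4 cell 76 gave 233 higher and 1090 lower genes, leaving out Myelo-2 cell 82 gave 189 and 1069, and leaving out Myelo-2 cell 71 gave 190 and 1070. The number higher was 204 to 248 when any single Myelo-4 cell was left out, and 180 to 193 for any single Myelo-2 cell. These counts thus do not set cells 76, 82 and 71 apart from their classes. Summed basophil and mast cell markers reached 100 TPM in 7 of 13 Myelo-4 and 10 of 27 Myelo-2 cells, with medians of 132 and 32.6 TPM. Of that list Hdc, histidine decarboxylase, averaged 382 and 123 TPM without a call, while Mcpt8 averaged 0.59 and 0.14 TPM. Summed eosinophil markers reached 100 TPM in 4 of 13 and 9 of 27 cells, led by Ear2, a ribonuclease, at means of 223 and 191 TPM without a call. The part of these transcripts in the results was not tested.

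The 3 Myelo-3 cells of the same gate had as few genes detected as Myelo-4 cells, 1282, 1312 and 1606, with low Mmp8 and Mmp9. Their Mmp8 values were 0.52, 0 and 1.15 TPM in that order of cells, and their Mmp9 values 6.35, 2.86 and 0 TPM. Fcnb was at 89.3, 5358 and 80.0 TPM, and the mitosis sum at 208, 2690 and 9945 TPM. The gelatinase and late secreted sum was at 295, 4135 and 63 TPM, and the cell with 4135 TPM lay above every Myelo-2 cell and above 3 Myelo-4 cells.

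The same classes were also present in the CD11b+ gate, with 3 Myelo-4 and 14 Myelo-2 cells. Of its 4425 measured genes 25.4% were higher and 34.4% lower in Myelo-4. Myelo-4 cell 46 of that gate went against its class, with 7850 TPM of summed monocyte markers, 15 TPM of Camp, 0 TPM of Mmp9 and 1.63 TPM of Retnlg, although it held 249 TPM of Mmp8. Without it, 23.8% were higher and 46% lower of 3842 measured genes. Mmp8 was at 2268, 4377 and 249 TPM in Myelo-4 cells 14, 17 and 46, against at most 2.33 TPM in Myelo-2 cells. Mmp9 was at 1069, 968 and 0 TPM in these cells, against at most 41.9 TPM in Myelo-2 cells. Of 40 measured mitosis genes 39 were lower with and without cell 46, and of the gelatinase list 8 of 9 were higher with it and 8 of 8 without it. The mitosis sums were 40.5, 21.3 and 96.1 TPM in the Myelo-4 cells, against 2233 to 16643 TPM in Myelo-2 cells.

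Some values of the Ly6g high gate were not matched in the CD11b+ gate. Ly6g averaged 1832 TPM in Myelo-4 and 96.5 TPM in Myelo-2 cells there, or 2747 TPM in Myelo-4 without cell 46, a log2 ratio of 4.23 with and 4.82 without that cell. Cxcr2 had a log2 ratio of -2.62 with and -2.24 without it, against 2.59 in the Ly6g high gate. That value rested on Myelo-2 cell 8 of the CD11b+ gate, which held 291 TPM and 77.3% of the Myelo-2 sum. Without cell 8 the ratio of Cxcr2 was -0.74, and without cells 46 and 8 it was -0.36. List medians that differed in sign between the gates included NF-kB and inflammation, at -2.50 in the Ly6g high and 1.18 in the CD11b+ gate. Granulocyte transcription factors were at -0.19 and 0.74, and specific granule genes at 0.16 and -0.57. Without cell 46 the CD11b+ medians of these lists were 1.34, 1.05 and -0.34. The differences between the gates were not tested.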

How the data were processed

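Levels were deposited by the authors as log2(TPM + 1), in 1 table of 23946 genes by 127 cells, beside a file that names the class of each cell. The tools RSEM and Bowtie2 and the build mm9 are named, per the submitters' processing notes; versions, annotation and the class method are not given in the sources used here. Per the labels, libraries were read as 150-base pairs. Every column matched a labelled sample (0 left over). The deposited log2 values were turned back into TPM, and class means, ratios, detection and pair shares (ties counted as 0.5) were computed with Python 3.11.15, numpy 2.4.6, pandas 2.3.3 and scipy 1.17.1; figures were drawn with matplotlib 3.10.9. The calculation was checked on simulated data. Read depth is unknown from TPM, so genes detected per cell are given in its place. No cells were filtered, clustered or passed through a doublet caller.

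Named genes were a fixed set, the 12 highest and 12 lowest ratios among called genes whose mean reached 10 TPM in either class, and up to 4 members of each of 34 lists, 98 genes in all; 1 of the lists is not reported here. Other list members were named after their values were seen. The classes, the members and the lists were chosen with earlier results of these data known. No test was made, because each class is 1 sample without a named animal. Promoters came from RefSeq, build GRCm38.p6. The alternatives covered pseudocount, filter, mean, scaling, detection level and choice of cells; leaving out single cells was added after seeing the data.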

Additional observations from a re-analysis of the deposited data

How the results depend on the processing

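Counts of higher and lower genes depended strongly on the settings, while Mmp8, Mmp9 and Retnlg stayed positive and the mitosis median stayed negative under every alternative run. Against 188 higher and 1063 lower genes, there were 85 and 452 with a pseudocount of 10 TPM, 517 and 414 with the median of all genes shifted to 0, and 617 and 671 in the shared-range cells. The log2 ratio of Mmp8 was 13.31 with a pseudocount of 0.1 TPM, 7.82 with 10 TPM, 9.90 as a difference of mean log2 values and 11.73 when shifted. Mmp9 was at 5.51 as a difference of mean log2 values and 3.57 when shifted. Retnlg was at 6.15 with a trimmed mean, 6.76 as a difference of mean log2 values, 6.14 when shifted and 4.26 in the shared-range cells. Ly6g was at 1.51 when shifted, 1.61 in the shared-range cells and 1.05 with the 10 Myelo-4 and 21 Myelo-2 cells of most genes detected. Signs that turned included Tpm4 (-0.40), Cd82 (-1.24) and Slfn1 (-0.83) in the shared-range cells, and Irf7 without Myelo-4 cell 79 (-0.66). The NF-kB median turned in those 10 and 21 cells (0.0062). In the shared-range cells the respiratory (0.20), glycolysis (0.12), lysosome (0.79), specific granule (-0.12) and Schlafen (-0.35) medians turned. Shifting turned further list medians, as given above. In the CD11b+ gate Ndufs7 was at 4.90 with cell 46 and -4.51 without it. The causes were not tested.

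Leaving out each cell in turn gave 180 to 248 higher and 995 to 1108 lower genes. The log2 ratios ranged from 10.79 to 11.10 for Mmp8, 2.48 to 3.19 for Mmp9, 4.95 to 6.02 for Retnlg and 0.50 to 1.09 for Ly6g. The list medians ranged from -6.34 to -6.11 for mitosis, -5.06 to -4.41 for S phase, 1.98 to 2.92 for gelatinase and -0.12 to 0.26 for specific granules. No paired analysis was possible because cell numbers pair nothing and the results come from no test.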
